A study of Mus musculus with 41 samples.

Results

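Cytochrome P450 enzymes were read from 102 array probes for 70 mouse genes, out of 27962 gene names on the array. They were taken by symbol alone, as every probe for a mouse gene named Cyp followed by a family number, a subfamily letter and a gene number. This rule uses no expression value, but the group was chosen with earlier results of these data known. Of these genes, 41 had 1 probe and 29 had several, and for the latter the probe with the highest mean signal is given as the lead probe. RNA came from adult female C57BL/6 mice (substrain C57BL/6BomTac in the study's methods) whose age is labelled as equivalent to GD4. Exposed mice had inhaled surface-coated nanoTiO2 at 40 mg/m3 for 1 h on each of 11 days in a row, and control (air exposed) mice had breathed filtered air. Tissue was taken 5 days after the last exposure. There were 7 exposed and 6 control lungs, and 7 exposed and 8 control livers, with 1 mouse on each array. By the number in their labels, 12 mice were measured in both tissues. The mice had been mated but had not conceived, and a small random piece of the left lung or of the liver was used, so that fewer cells of a type and less RNA per cell cannot be told apart.

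P450 enzymes are heme proteins of the endoplasmic reticulum and the mitochondrion that insert 1 oxygen atom into small molecules. Families CYP1 to CYP3 act mainly on drugs, pollutants and other foreign compounds, CYP4 on fatty acids and eicosanoids, and higher families on bile acids, steroids and vitamins. The liver is the main organ of the xenobiotic enzymes, which its nuclear receptors PXR, CAR and PPARalpha and the dioxin receptor AhR control, while in the lung the club cells of the airway hold most of the P450 activity.

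Each value below is the log2 ratio of a sample (Cy5) over a pool of RNA from 11 mouse cell lines (Cy3) that was on every array. A ratio is therefore a level relative to what that pool holds, and levels of different genes are not compared. An offset of 50 was added to every signal, which draws the ratios of dim probes towards 0. For bright probes too, tissue differences in the ratio can differ in size or direction from those in the Cy5 signal alone. The lead probe of Cyp2a5 had a Cy5 mean of 11.40 in control lung and 16.22 in control liver (log2, normalized between arrays), and a ratio difference of -2.01. Markers of each tissue were high on its own arrays. The mean ratio of 3 club cell markers lay between 5.80 and 6.70 in the lungs and between 0.10 and 0.61 in the livers, and that of 8 hepatocyte markers lay between 5.43 and 5.98 in the livers. In Cy5, 55.1% to 70.5% of spots were well above background, and no P450 probe was saturated. All lung arrays were read with one version of the scanner software and all liver arrays with another, so tissue and software version cannot be told apart. Exposed mice lay at the upper 2 places of each slide and controls at the lower 2, so place and exposure cannot be told apart either.

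Control lung and control liver were compared to give the tissue that each P450 belongs to without the exposure. Of the 70 lead probes, 58 were lower in lung, 6 were higher in lung and 6 did not pass the test (limma, Benjamini-Hochberg adjusted p under 0.05 over all 41172 probes tested). Over all 102 probes, 78 (76.5%) were lower in lung, against 28.5% of all probes on the array, and 6 (5.88%) were higher, against 29.7%. The median difference of the P450 probes was -2.59 on the log2 scale, and that of all probes -0.01. Lead probes of 38 genes were well above background in all control lungs and those of 22 genes in none. In control liver the numbers were 60 and 2, the latter being Cyp11a1, which starts steroid synthesis, and Cyp11b2, the aldosterone synthase. Other steroid enzymes were also dim, with Cyp17a1, which makes androgen precursors, as the exception in liver, where it had a ratio of 3.79 ± 0.58 (SD, n = 8).

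**Figure D1:**
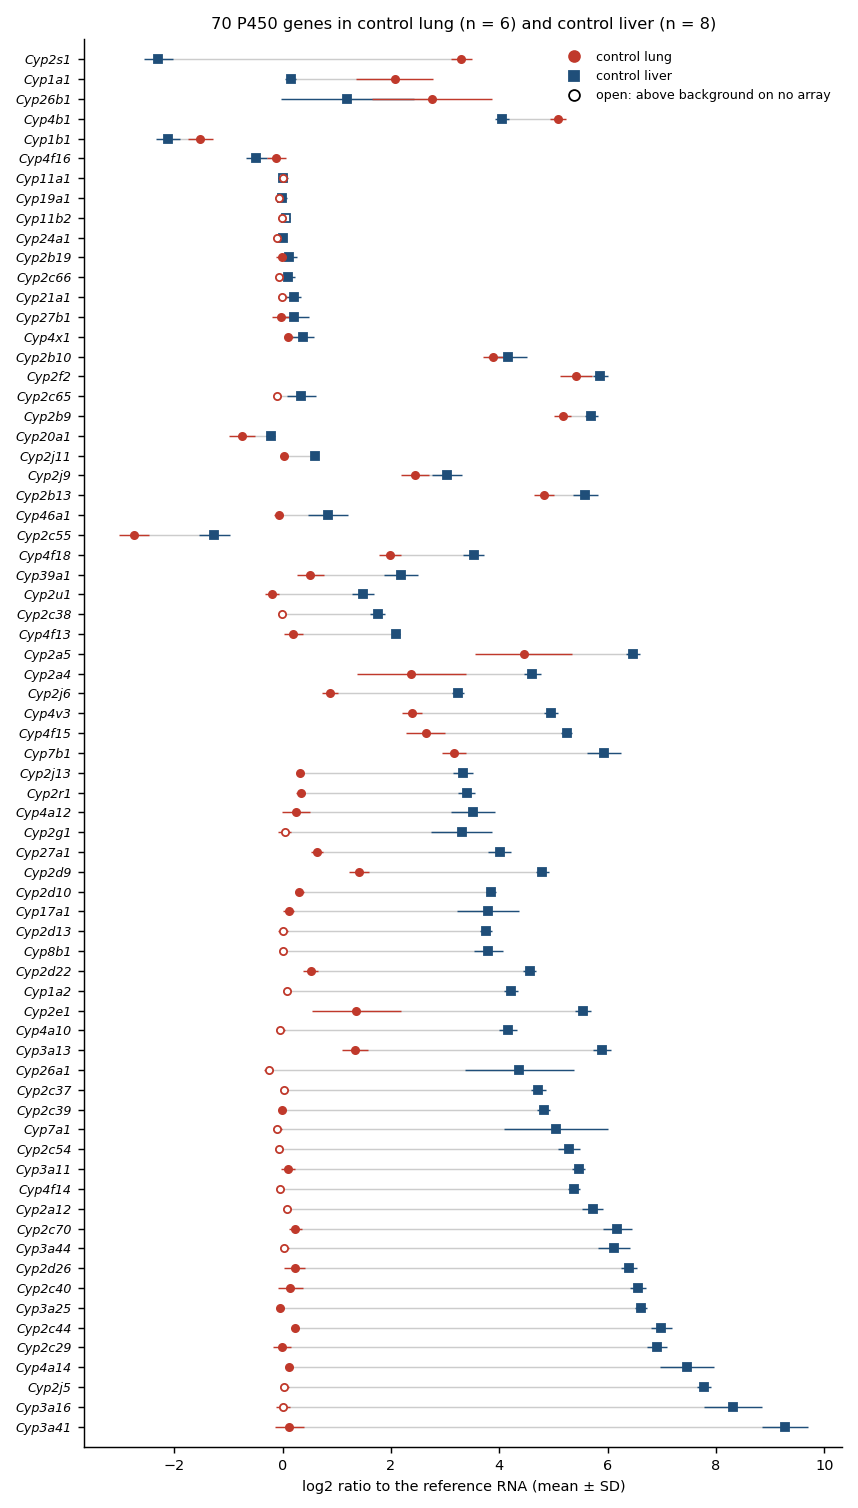
Mean log2 ratio to the reference RNA (horizontal axis, with SD) of the lead probe of each of 70 P450 genes in control lung (red circles, n = 6) and control liver (blue squares, n = 8), ordered by their difference. Open symbols were above background on no array of the group. Each gene is to be read along its own line: at the top Cyp2s1 is 5.59 higher in lung, and at the bottom Cyp3a41 is 9.15 lower.

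The 6 genes higher in lung were Cyp2s1, Cyp1a1, Cyp26b1, Cyp4b1, Cyp1b1 and Cyp4f16. Cyp2s1, an enzyme of epithelia outside the liver, had a lowest, median and highest ratio of 2.97, 3.34 and 3.50 in control lung and of -2.72, -2.31 and -1.86 in control liver. The groups were far apart, by 5.59 ± 0.12 (SE, adjusted p = 1.45e-16 from limma). Its other probe was above background on no array. Cyp1a1, the AhR target that oxidizes polycyclic aromatic hydrocarbons, ranged from 1.45 over 1.91 to 3.45 in control lung and from -0.05 over 0.20 to 0.26 in control liver, where 1 of 8 arrays was above background. All lungs lay above all livers and the difference was 1.92 ± 0.22 (adjusted p = 7.08e-07, limma).

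Cyp4b1, which activates furan toxins in the airway, had ratios of 4.90, 5.05 and 5.29 in control lung and of 3.84, 4.02 and 4.24 in control liver, again without overlap. It was 1.04 ± 0.07 higher in lung. With the scanner software's own processed signals it was 0.83 lower (adjusted p = 4.44e-05, limma), so the direction of its ratio rests on the processing. By the Cy5 signal alone, after normalization between arrays, it averaged 14.98 in control lung and 10.45 in control liver. Cyp1b1, a second AhR target that also oxidizes oestradiol, was higher in lung by 0.60 ± 0.11 (adjusted p = 0.000158, limma), a call that was lost with another background fit (difference 0.21, adjusted p = 0.661). Cyp4f16, of a family of fatty acid hydroxylases, was higher by 0.37 ± 0.09 (adjusted p = 0.00249), and its other probe differed by 0.07 (adjusted p = 0.211, limma). Its call was lost under median centring (difference 0.45, adjusted p = 0.0839). Cyp26b1 is described further below. Of the remaining CYP1 genes, Cyp1a2, the liver counterpart of Cyp1a1, was not well above background in any control lung and differed by -4.13 on the ratio scale (adjusted p = 4.81e-19, limma).

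The CYP3A enzymes, which oxidize a large share of drugs as well as steroids, were lower in lung with 8 of 8 probes, and all 8 were called. Cyp3a41 had ratios of 8.76, 9.27 and 9.75 in control liver and of -0.24, 0.12 and 0.57 in control lung, where 5 of 6 arrays were above background. The difference was -9.15 ± 0.17 (adjusted p = 2.85e-17, limma), the largest of the 70 genes. Cyp3a16 was not well above background in any control lung and had ratios of 7.53, 8.51 and 8.84 in control liver, a difference of -8.30 ± 0.20 (adjusted p = 5.4e-16, limma). By the Cy5 signal alone, after normalization between arrays, it was at least 649-fold higher in liver, and Cyp3a44 at least 638-fold. Such bounds hold for the Cy5 signal and not for the ratio, which for Cyp3a44 differed by only 67.6-fold, and they are open to dye bias, as no dyes were swapped. Cyp3a25 differed by -6.65 and Cyp3a11, the main PXR target of the group in mouse, by -5.38. Cyp3a13, which is also made in the gut, differed least, by -4.56 ± 0.10, and was above background in all lungs.

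The CYP3A genes had the largest median difference of any group. Of these 6 genes, the 250 bases before the start sites of Cyp3a11, Cyp3a41 (Cyp3a41a in RefSeq) and Cyp3a44 are shown. They are from RefSeq (GRCm38.p6, minus strand), at chr5:145879855-145880104, chr5:145720137-145720386 and chr5:145805875-145806124. Capitals mark CAAAGTCCA, a sequence that the liver factor HNF4alpha prefers, or the 9 bases closest to it in Cyp3a44, where 8 of 9 match.
Cyp3a11: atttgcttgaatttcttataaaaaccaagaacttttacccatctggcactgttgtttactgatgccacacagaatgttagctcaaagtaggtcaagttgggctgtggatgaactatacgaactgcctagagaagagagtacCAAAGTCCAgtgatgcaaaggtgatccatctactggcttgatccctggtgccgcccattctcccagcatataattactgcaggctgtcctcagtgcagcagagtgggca
Cyp3a41a: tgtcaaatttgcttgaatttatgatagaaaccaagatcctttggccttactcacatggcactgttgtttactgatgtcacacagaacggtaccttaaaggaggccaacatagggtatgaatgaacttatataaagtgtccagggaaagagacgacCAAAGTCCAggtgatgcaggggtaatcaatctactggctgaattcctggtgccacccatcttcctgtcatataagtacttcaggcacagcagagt
Cyp3a44: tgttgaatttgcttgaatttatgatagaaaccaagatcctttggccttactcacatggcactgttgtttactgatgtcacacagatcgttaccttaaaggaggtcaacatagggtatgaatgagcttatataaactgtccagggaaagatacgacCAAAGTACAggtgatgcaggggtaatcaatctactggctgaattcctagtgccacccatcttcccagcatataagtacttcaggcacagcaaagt
The Cyp3a41a and Cyp3a44 stretches were identical at 236 of 250 bases (94.4%). The motif, searched on both strands in windows of 300 bases, was in 0.475% of 32841 mouse promoters and in those of Cyp2c40, Cyp2c65, Cyp2c70, Cyp3a11, Cyp3a16, Cyp3a41 and Cyp8b1, 7 of the 53 P450 genes found in the promoter table. All 7 were lower in lung, as were 42 of the 53. Of the CYP3A genes not shown, Cyp3a16 held the motif. Cyp3a13 and Cyp3a25 did not, and both were also lower in lung. Of the 58 genes lower in lung only 42 had a promoter here, under 80%, so that a comparison over the group is void. A match in the letters is a description and shows no binding, and a part of HNF4alpha in the tissue difference was not tested. Hnf4a itself was above background in no control lung, and control lung minus control liver was -5.15 ± 0.05 (adjusted p = 3.17e-20, limma).

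All 23 probes of the CYP2C and CYP2D enzymes, which metabolize drugs and arachidonic acid, were lower in lung, with a median difference of -4.04. Cyp2c29, a target of CAR, differed by -6.92, and Cyp2c44, an arachidonic acid epoxygenase, by -6.76. Cyp2c40 differed by -6.42 and Cyp2d26 by -6.17. Cyp2c70, which makes the muricholic acids of mouse bile, differed by -5.94. Probes for Cyp2c40, Cyp2c37 and Cyp2d9 name transcripts of 2 or 3 genes in the array's annotation, as did 13 of the 102 probes in all, and cannot be given to 1 gene.

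Of the CYP2J, CYP2U and CYP4 enzymes of fatty acids and eicosanoids, 19 of 25 probes were lower in lung and 2 were higher. Cyp2j5, an epoxygenase of liver and kidney, had ratios of 7.61, 7.82 and 7.93 in control liver, was not well above background in any control lung and differed by -7.75 ± 0.06 (adjusted p = 3.1e-21, limma), or at least 364-fold by the Cy5 signal alone. Cyp4a14, a PPARalpha target that hydroxylates fatty acids at their end, differed by -7.35 and Cyp4a10 by -4.20. Cyp4f18, which inactivates leukotriene B4 in neutrophils, had a smaller difference of -1.55 ± 0.10, with 1.64 to 2.19 in control lung and 3.32 to 3.78 in control liver. All 8 probes of the bile acid and cholesterol group were lower in lung. Cyp7a1, the rate-limiting enzyme of bile acid synthesis, was not well above background in any lung and ranged from 3.38 over 5.15 to 6.54 in control liver, with the widest spread of its group (SD 0.96, n = 8), while Cyp27a1, of the acidic pathway, had an SD of 0.22. Cyp7b1, which acts on oxysterols, was well above background in all lungs at 2.71 to 3.30, and was 2.77 lower than in liver on the log2 scale, a call that was lost with the scanner software's processed signals (difference -0.42, adjusted p = 0.0848, limma).

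Among the enzymes that club cells are known for, Cyp2f2, which activates naphthalene, had ratios of 4.99, 5.54 and 5.67 in control lung and of 5.64, 5.88 and 6.10 in control liver. The groups overlapped at their edges, and lung was lower by 0.45 ± 0.11 on the log2 scale (adjusted p = 0.00153, limma). This call was lost under 2 of the other processings, with differences of -0.32 and -0.24. By the Cy5 signal alone, after normalization between arrays, Cyp2f2 averaged 16.79 in control lung and 16.14 in control liver. Its direction thus depends on whether the ratio or the Cy5 signal is read. Cyp2a5, which hydroxylates coumarin and nicotine, differed by -2.01 ± 0.27 (adjusted p = 5.84e-06, limma). Its spread in the lung was wide, with 3.30, 4.73 and 5.38 in control lung (SD 0.89) against 6.28, 6.50 and 6.67 in control liver (SD 0.13). The same lungs were low on all 4 probes of Cyp2a5 and Cyp2a4, namely exposed mice 1, 12 and 20 and control mice 27 and 29. Whether the probes tell these paralogs apart was not tested. The overlapping part of a Cyp2a4 and a Cyp2a5 probe is shown with the differing bases in capitals (chr7:23212199-23212258 and chr7:23212221-23212279, build mm7, plus strand).
Cyp2a4 A_51_P377154: aggacacTTCgtagacttgcagaggatatt
Cyp2a5 A_52_P246252: aggacacAGAgtagacttgcagaggatatt
Of the 38 bases in which the probes overlap, 35 match. The Cyp2a4 probe names transcripts of both genes and this Cyp2a5 probe those of Cyp2a5 alone.

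The CYP2B genes, of which Cyp2b10 is the classical target of CAR, showed how far the tissue difference in the ratio varied with the probe. The lead probe of Cyp2b9 had a mean ratio of 5.17 in control lung and of 5.70 in control liver, a difference of -0.53 (adjusted p = 5.02e-06, limma). This probe names Cyp2b9 and Cyp2b10. The other Cyp2b9 probe names Cyp2b9 alone and had 1.40 and 4.53, a difference of -3.13 ± 0.13. The Cy5 signal alone, after normalization between arrays, parted the tissues alike on both probes. It averaged 12.16 in control lung and 15.39 in control liver on the lead probe, and 7.44 and 10.62 on the other. For Cyp2b13 the lead probe, which names Cyp2b9, Cyp2b10 and Cyp2b13, had 4.82 and 5.58 (difference -0.77), and the probe that names only Cyp2b13 had 0.41 and 5.48 (difference -5.07 ± 0.15). The probes of Cyp2b10 itself had 3.88 and 4.15, and 4.10 and 3.81, with differences of -0.27 and 0.29 that did not pass the test (adjusted p = 0.119 for both, limma). The first of them did pass with the mouse as a block (-0.40, adjusted p = 0.00327), without background correction (-0.50), with the authors' table (-0.60) and without control liver 45 (-0.37). In the ratio, probes that name more than 1 CYP2B gene thus differed less between tissues than those naming only Cyp2b9 or only Cyp2b13. In Cy5, the lead Cyp2b13 probe averaged 11.43 in control lung and 13.60 in control liver, and the other 6.50 and 13.68. The Cyp2b10 probe A_51_P182362 named no gene through RefSeq transcripts.

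Sequences of 4 of these probes are given, since the reading depends on them (build mm7, plus strand of chromosome 7, at chr7:22986378-22992433, chr7:22691069-22691128, chr7:22691430-22700100 and chr7:23095303-23095362). Capitals in the Cyp2b13 probe mark the 21 bases, from base 5 to 25, that encode the conserved stretch around the cysteine that holds the heme. It was the only one of the 102 probes to lie on that stretch, and it names all 3 CYP2B genes.
Cyp2b13 A_51_P492339: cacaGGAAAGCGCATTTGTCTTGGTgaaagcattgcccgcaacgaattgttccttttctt
Cyp2b10 A_52_P472486: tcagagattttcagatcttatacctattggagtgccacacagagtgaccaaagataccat
Cyp2b10 A_51_P182362: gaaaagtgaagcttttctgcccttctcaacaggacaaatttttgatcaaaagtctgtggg
Cyp2b9 A_52_P256914: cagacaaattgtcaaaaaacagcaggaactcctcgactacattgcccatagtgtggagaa

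**Figure D2:**
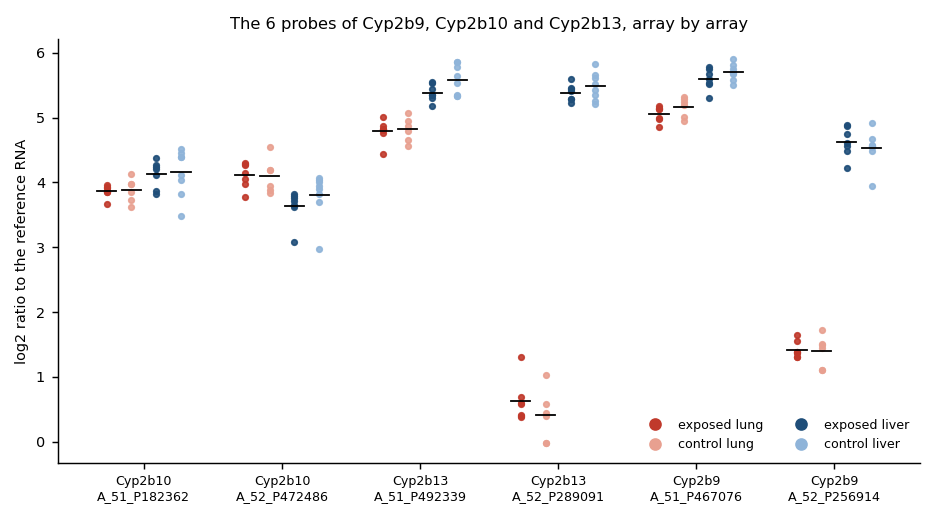
Log2 ratio to the reference RNA (vertical axis) of the 6 probes of Cyp2b9, Cyp2b10 and Cyp2b13 on every array, in exposed lung (n = 7), control lung (n = 6), exposed liver (n = 7) and control liver (n = 8). Points are mice and bars are group means. The probe that names Cyp2b13 alone averages 0.41 in control lung and 5.48 in control liver, and the one that names 3 genes averages 4.82 and 5.58.

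The other groups were mixed. Of the 6 probes for vitamins A and D, 3 were lower in lung and 1, that of Cyp26b1, was higher. Cyp26a1, its liver counterpart, was lower by 4.63 on the log2 scale and Cyp2r1, which makes the circulating form of vitamin D, by 3.07. Of the 19 probes for CYP2A, CYP2B, CYP2E, CYP2F, CYP2G and CYP2S, 12 were lower and 1 was higher, and of the 7 for steroid hormones 2 were lower. The 6 genes whose lead probe did not pass the test were Cyp11a1, Cyp11b2, Cyp19a1, Cyp2b10, Cyp2b19 and Cyp27b1.

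Over all 29 genes with several probes, 24 had the same sign of the tissue difference on every probe, and the median gap between a gene's most different probes was 0.98. The largest gap was that of Cyp2s1 (5.61).

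Many of the proteins that P450 enzymes work with were also lower in lung. Of all probes, 28.5% were lower in lung and 29.7% higher. Of 7 electron donors, 6 were lower in lung and none was higher, with Pgrmc1 at -2.55 and Cyb5, cytochrome b5, at -2.15, while Por, the reductase that all microsomal P450 enzymes need, differed by 0.15 (adjusted p = 0.55, limma). Of 11 genes of heme synthesis and breakdown, 8 were lower in lung and 1, Alas2, was higher. Of 24 receptors and factors, 13 were lower, among them Nr1h4 (FXR, -5.87), Nr1i2 (PXR, -4.08), Ppara (-3.32) and Nr1i3 (CAR, -3.20). Vdr, the vitamin D receptor, at 1.24 and Ahr at 0.37 were higher in lung. Of 5 AhR targets other than P450s, 2 were higher and 2 lower in lung, and of 8 PPARalpha targets, 6 were lower. None of the genes of these 5 lists was called between exposed and control mice in either tissue. Of all probes, 0.221% were called in lung and 0% in liver, so lists of this size would rarely hold a call.

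Lungs of 3 exposed mice stood apart in liver-type P450 genes. The 10 genes with the largest liver excess had a mean ratio of 2.00 in the lung of exposed mouse 1, of 0.86 in those of mice 13 and 19, and of -0.03 to 0.27 in the other 10 lungs. All 10 genes were above background in each of those 3 lungs, and 2 to 6 of them in any other. In the same 3 lungs the mean of the 8 hepatocyte markers was 3.22, 2.31 and 2.33, and in the other 10 lungs it was 0.83 to 1.62. Of the 8 markers, 8, 7 and 7 were above background in the 3 lungs and 5 to 7 elsewhere. Ttr was above background in no control lung. Alb1, the gene of albumin, was 0.87 higher in exposed lung (adjusted p = 0.691, limma) and 0 of the 8 markers passed the test. The mean of the club cell markers was 6.29, 6.32 and 6.04 in the 3 lungs, within the range of the others. The part of liver RNA in the results below was not tested, and lung differences are given with and without the 3 lungs. These 3, all exposed, were picked after their P450 values were seen. Lower liver-type P450 differences without them are therefore set by the choice and are no test.

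**Figure D3:**
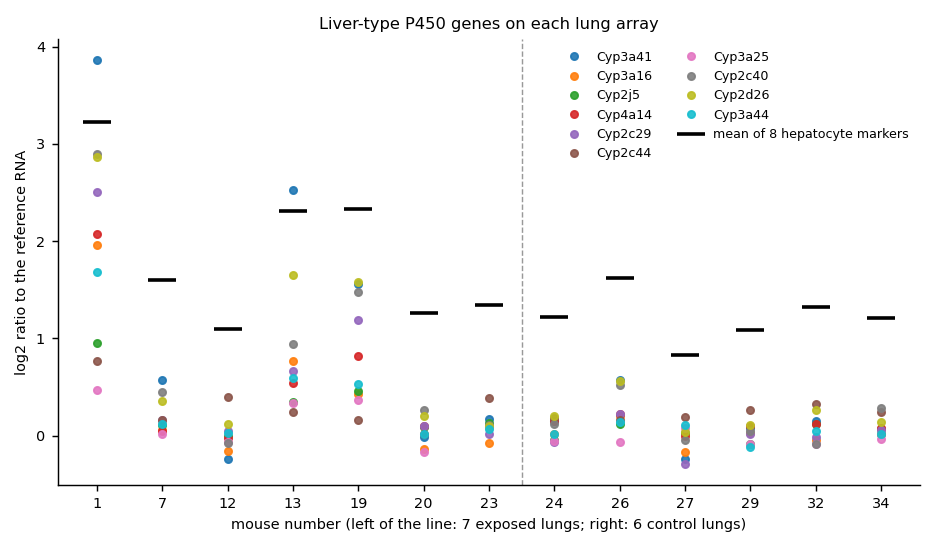
Log2 ratio to the reference RNA (vertical axis) of the 10 P450 genes with the largest liver excess on each lung array (horizontal axis, mouse number), with 7 exposed lungs left and 6 control lungs right of the dashed line. Black bars are the mean of 8 hepatocyte markers. Exposed mice 1, 13 and 19 have the highest values of both, for example 3.87, 2.52 and 1.56 for Cyp3a41.

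Exposed and control lungs were compared to ask whether inhaled nanoTiO2 altered the P450 genes at the site of contact. No P450 probe was called at an adjusted p under 0.05, while 91 of all 41172 probes (0.221%) were, and the lowest adjusted p of the 102 was 0.537 (limma). At an unadjusted p under 0.05, 6 P450 probes (5.88%) were higher in exposed lung, against 3.7% of all probes, and 0 were lower, against 3.37%. Without exposed mice 1, 13 and 19 no P450 probe had such a p, against 2.21% of all probes higher and 1.71% lower. As these mice were picked after their lung P450 values were seen, that count is no test of the exposure. For no P450 probe did every exposed lung lie above every control lung (0.276% of all probes) or below (0.115%). Of the 102 probes, 73 had a positive difference, with a median of 0.05 against 0.00 for all probes. Without these 3 mice the number was 55 and the median 0.00. With all mice kept, the number was 68, 54 and 66 within slides 1, 2 and 3, which hold both groups. Slide 1 holds exposed mouse 1, and slide 3 holds exposed mice 13 and 19.

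Cyp3a41 had the highest difference. Its ratios in exposed mice 1, 7, 12, 13, 19, 20 and 23 were 3.87, 0.57, -0.24, 2.52, 1.56, -0.01 and 0.17, and those in control mice lay between -0.24 and 0.57 with a median of 0.12. Mice 1, 13 and 19 lay far above the control range and mouse 7 at its upper edge. The difference was 1.08 ± 0.55 (SE, unadjusted p = 0.0676, limma), and without mice 1, 13 and 19 it was 0.00. Cyp2d26 differed by 0.76, Cyp3a11 by 0.62 and Cyp2c70 by 0.47, and without the 3 lungs by -0.03, 0.02 and 0.12. All 8 CYP3A probes had a positive difference, with a median of 0.29, and without the 3 lungs 7 of 8 did, with a median of 0.02. The 3 lungs had been picked by such values, so these drops follow from the choice.

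Cyp2e1, the enzyme of ethanol and small solvents, ranged from 1.07 over 2.42 to 3.72 in exposed and from 0.40 over 1.42 to 2.78 in control lung. The highest lung was that of exposed mouse 23, whose hepatocyte marker mean was 1.34, and the groups overlapped. The difference was 0.90 ± 0.48 (unadjusted p = 0.0823), and 0.43 without the 3 lungs. Cyp20a1, whose substrate is not known, had the lowest unadjusted p. Its ratios in exposed lung were -0.76, -0.37 and 0.07 and in control lung -1.15, -0.67 and -0.53, with overlap, and it differed by 0.41 ± 0.14 (unadjusted p = 0.0124, adjusted p = 0.537, limma). Without the 3 lungs it differed by 0.22 (unadjusted p = 0.135). Cyp7b1 had 2.97, 3.58 and 3.72 in exposed and 2.71, 3.24 and 3.30 in control lung. Of 7 exposed lungs 6 were above all controls, and the difference was 0.32 ± 0.12 (unadjusted p = 0.0177, limma). It was 0.26 without the 3 lungs, but -0.41 with normexp on all spots and -0.77 (unadjusted p = 0.0107) when the processed signals were taken, so its direction rests on the processing.

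The P450 genes that respond to AhR had no call in the lung. Cyp1a1 was 0.35 ± 0.25 lower on the log2 scale in exposed lung (unadjusted p = 0.191, limma), with 1.16, 1.69 and 2.08 in exposed mice and 1 control, mouse 32, at 3.45. Without that control it was -0.07, and without the 3 exposed lungs -0.29. Cyp1b1 differed by 0.12 ± 0.10. Of other enzymes well above background in every control lung, Cyp2s1 differed by 0.18 ± 0.09, Cyp2f2 by -0.06 ± 0.14, Cyp4b1 by -0.05 ± 0.07 and Cyp2b10 by -0.02 ± 0.07. Cyp2a5 differed by 0.12 with an SE of 0.44, so that little can be read from it. Without the 3 lungs the values were 0.05 for Cyp1b1, 0.17 for Cyp2s1, 0.01 for Cyp2f2, -0.06 for Cyp4b1 and for Cyp2b10, and -0.14 for Cyp2a5. Cyp4f18 differed by -0.15 ± 0.10, and by -0.21 without the 3 lungs. In all 13 lungs, 5 neutrophil markers had a median difference of -0.33 with 0 called, and of 4 macrophage markers 1, Marco, was called (0.57, adjusted p = 0.0094, limma). Their part in the value of Cyp4f18 was not tested.

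**Figure D4:**
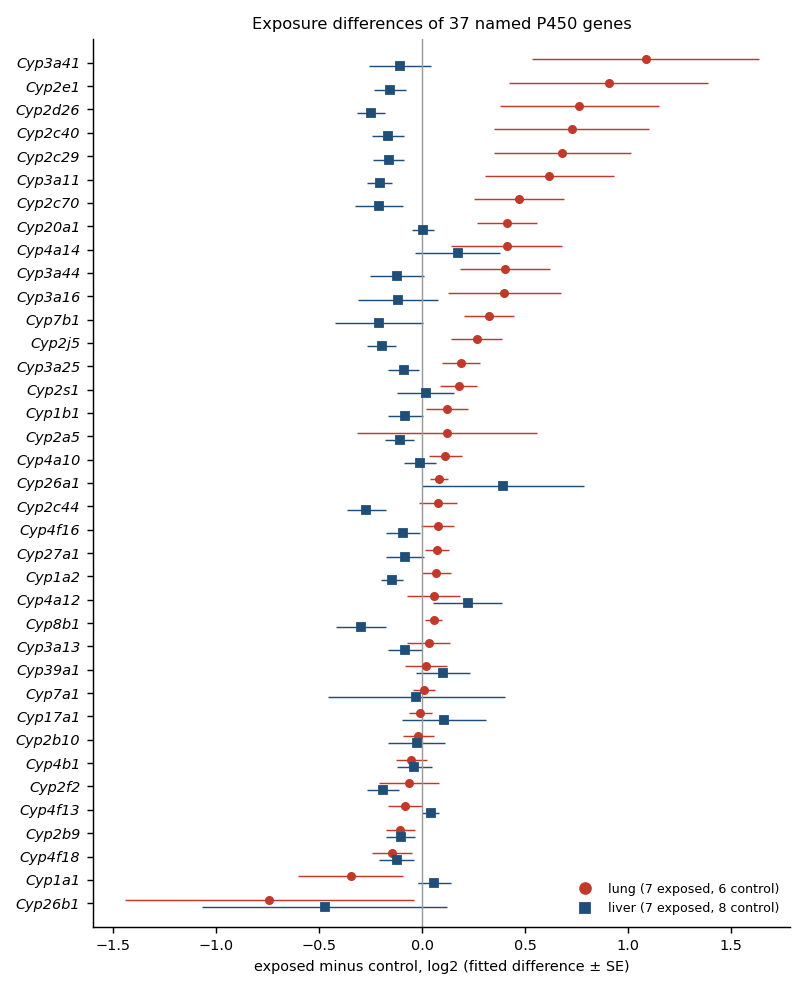
Fitted difference of exposed minus control on the log2 scale (horizontal axis, with SE) for 37 named P450 genes, in lung (red circles, 7 exposed and 6 control) and liver (blue squares, 7 exposed and 8 control). None passed the test at an adjusted p under 0.05. The largest lung differences, such as 1.08 for Cyp3a41, have wide errors, and most liver points lie a little below 0.

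In the liver, the question was whether an organ away from the site of contact responded. No P450 probe and no other probe (0%) was called at an adjusted p under 0.05 by limma, whereas 1041 of all 41174 had an unadjusted p under 0.05. Of the P450 probes, 19 (18.6%) were lower in exposed liver at an unadjusted p under 0.05, against 1.61% of all probes, and 0 were higher, against 0.918%. Complete separation of the groups was found for none of the 101 P450 probes without a missing value, above (0.0146% of all probes) or below (0.00975%). In all, 69 of 102 probes had a negative difference, with a median of -0.04 against -0.00 for all probes, but only 20 did under normexp on all spots and under median centring, with medians of 0.29 and 0.09, so the direction rests on the processing. Within slides 1 to 4, 78, 57, 67 and 60 probes were lower.

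The differences were small. Cyp4f15, of the fatty acid hydroxylases, had ratios of 4.94, 5.04 and 5.15 in exposed and of 5.15, 5.23 and 5.45 in control liver, a difference of -0.20 ± 0.05 (unadjusted p = 0.00123, limma). The groups touched at 5.15. Cyp2d26 had 6.01, 6.13 and 6.37 against 6.15, 6.39 and 6.57, a difference of -0.25 ± 0.07 (unadjusted p = 0.00199), and Cyp3a11 5.07, 5.23 and 5.42 against 5.24, 5.50 and 5.59, a difference of -0.21 ± 0.06 (unadjusted p = 0.00376). Both overlapped. Cyp2c44 differed by -0.27 ± 0.09 and Cyp8b1, which steers bile acid synthesis to cholic acid, by -0.30 ± 0.12. Of the 23 CYP2C and CYP2D probes, 20 were lower, with a median of -0.13. Cyp1a2, the AhR target of the liver, differed by -0.15 ± 0.05 (unadjusted p = 0.0155) and Cyp2j5 by -0.20 ± 0.07. Under normexp on all spots the differences were 0.61 for Cyp8b1, 0.35 for Cyp2c44, 0.64 for Cyp2j5 and 0.29 for Cyp1a2. Under median centring they were 0.02 for Cyp2d26 and 0.03 for Cyp3a11. The direction of these genes thus rests on the processing. The lowest adjusted p of the P450 probes was 1.00 (limma).

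Other genes of hepatocytes had lower ratios in the same livers. The mean of the 8 hepatocyte markers was 5.43, 5.48 and 5.73 in exposed and 5.54, 5.79 and 5.98 in control liver. Their median difference was -0.21, with -0.32 for Alb1 and -0.33 for Fgb, a chain of fibrinogen, and 0 of 8 were called. The mean over the 60 P450 lead probes above background in every liver averaged 4.05 with an SD of 0.08 over the 7 exposed livers and 4.13 with an SD of 0.09 over the 8 controls. The part of the hepatocyte genes in the P450 values was not tested.

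Other named genes lay on both sides of 0, none of them called. Cyp26b1, described below, had the lowest difference at -0.48, and Cyp7b1 differed by -0.21 ± 0.21. Cyp26a1, which breaks down retinoic acid, had the highest difference at 0.39 ± 0.39 and ranged from 2.92 over 4.23 to 5.86 in control liver. The PPARalpha targets Cyp4a14 and Cyp4a10 differed by 0.17 ± 0.21 and -0.01 ± 0.08, and Cyp4a12 by 0.22 ± 0.17. Cyp7a1 differed by -0.03 with an SE of 0.43. Cyp17a1 differed by 0.11 ± 0.20 and Cyp39a1, of oxysterol breakdown, by 0.10 ± 0.13.

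The difference between the exposure effects in lung and liver was tested itself, over all 28 arrays. No P450 probe was called, against 58 of 41172 probes (0.141%), and the lowest adjusted p was 0.627 (limma). The 12 mice measured in both tissues enter this fit with both.

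Cyp26b1, a retinoic acid hydroxylase of many tissues outside the liver, differed from mouse to mouse more than between groups. In the lung its ratios in exposed mice 1, 7, 12, 13, 19, 20 and 23 were 1.78, 4.37, 1.58, 3.32, 3.15, -0.22 and 0.13, and in control mice 24, 26, 27, 29, 32 and 34 they were 2.65, 1.27, 3.55, 4.31, 2.95 and 1.82. In the livers of the 12 mice with both tissues, exposed mice 1, 12, 13, 19, 20 and 23 had -0.02, 2.20, 2.05, 2.14, -1.07 and -0.51, and control mice 24, 26, 27, 29, 32 and 34 had 1.26, -0.19, 2.61, 2.78, 0.92 and 0.22. Mice high in one tissue were mostly high in the other: mice 20 and 23 were lowest in both, and mouse 29 was highest in both of these 12. Exposed and control values overlapped in each tissue, and the differences were -0.74 ± 0.70 in lung (unadjusted p = 0.308) and -0.48 ± 0.59 in liver (unadjusted p = 0.435, limma). The lung value was -1.29 without the lungs of exposed mice 1, 13 and 19, and 0.15 with slide as a block. Control lung was higher than control liver by 1.56 ± 0.55 (adjusted p = 0.0228, limma), and this call was lost without control lung 27 (adjusted p = 0.0541) or 29 (adjusted p = 0.0646).

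**Figure D5:**
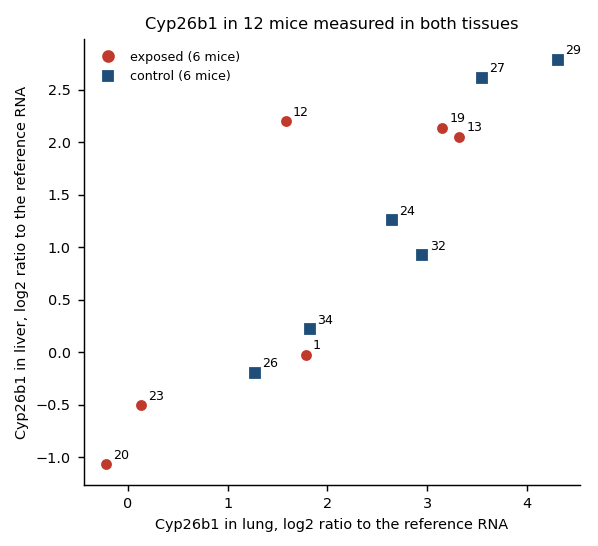
Cyp26b1 in the lung (horizontal axis) and in the liver (vertical axis) of the same mouse, paired by number, as log2 ratio to the reference RNA. Shown are 6 exposed (red circles) and 6 control (blue squares) mice with their numbers. The points rise from mouse 20 (-0.22 in lung, -1.07 in liver) to mouse 29 (4.31 and 2.78).

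After the mean of each group had been taken away, lung and liver values of Cyp26b1 correlated over the 12 mice with Pearson's r = 0.891 (permutation p = 0.00061 with mice shuffled within groups) and Spearman's rho = 0.797 (permutation p = 0.00535). The same was computed for the 37 P450 genes whose lead probe was above background on all 28 arrays, and after Benjamini-Hochberg adjustment over them only Cyp26b1 passed (adjusted p = 0.0226, permutation). It was picked out after the values were seen. Without the 2 mice farthest from the lung median r was 0.832, leaving out each mouse in turn gave 0.861 to 0.951, and with slide also taken out it was 0.821. Within exposed and within control mice r was 0.850 and 0.959. Lung and liver of a mouse, paired by the number in their labels, were on slides of the same number and at the same place. They were read with different software versions. Among all 19311 probes above background on every array, 29 (0.15%) had an r at or above that of Cyp26b1, and the median was 0.09. The next P450 gene was Cyp4f15 (r = 0.733, adjusted p = 0.198, permutation).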

How the data were processed

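Lung and liver RNA of single mice was hybridized to 2-colour arrays with 60-base probes, the sample in Cy5 against a reference pool in Cy3, without dye swaps. The authors deposited the scanner software's intensity values per spot, which are not normalized (software 9.5.3.1 for lung, 10.1.1.1 for liver), and log2 ratios made by LOWESS, used as an alternative. The latter correlated per array at 0.994 to 0.998 with ratios made here without background correction. The study had removed outlying arrays, and miRNA arrays were not used here.

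In R 4.3.3, spots marked as outliers (0.258% to 0.576%) were left out, median intensities were corrected with normexp (offset 50), and loess was run within arrays with control spots at weight 0. Replicate spots were averaged by probe. The tests used limma 3.58.1 (lmFit, eBayes, Benjamini-Hochberg over all probes, threshold 0.05). Figures were drawn with matplotlib 3.10.9. The scripts were tested on simulated data. The value of Cyp2d10 (1 of its probes) in control liver 29 was missing, as its spot was marked. RefSeq accessions gave symbols for 90 of 102 probes, of which 4 differed from the array's.

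Lungs and livers of the same group and number were taken as the same mouse, by the number in their labels. The study states that liver RNA came from the same mice. Some of these numbers stand for exposed mice here and for control mice on the miRNA arrays. Deviations from the group means correlated at -0.04 to 0.21 over the 12 pairs. The own pair was the best match for 8 of the 12. Alternatives were the mouse as a block, no background correction, normexp on all spots, the scanner software's processed signals, median centring, the authors' ratios, a filter on dim probes, slide as a block, and each array left out. Genes named were, by their lead probe, the 5 highest and 5 lowest per tissue among those above background, the 10 with the largest called tissue difference each way, and a list of known enzymes. Any other gene was chosen once values were known. The members and lists were chosen with earlier results of these data known. Replicates are separate mice, and the number of arrays limits the precision.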

Additional observations from a re-analysis of the deposited data

Results flagged for a closer look

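Single values far from their group were searched for over 37 named genes in 4 groups, and 10 of 148 groups (6.76%) held one by Dixon's criterion, where chance gives about 1 in 20. The lung of exposed mouse 1 had 4 of them, namely Cyp2c70 at 1.99 (next 0.81), Cyp3a44 at 1.69 (next 0.60), Cyp4a14 at 2.07 (next 0.82) and Cyp4a10 at 0.48 (next 0.09). This is the lung with the highest mean of hepatocyte markers, 3.22, and the part of liver RNA in these values was not tested. Cyp1a1 was 3.45 in control lung 32, where the next value was 1.98, and Cyp7b1 was 2.71 in control lung 29, below the next value of 3.19. Cyp3a13 was 1.81 in control lung 34 (next 1.32), and Cyp4a12 was 0.76 in control lung 24 (next 0.26). Cyp2b10 was 3.66 in exposed lung 23, below the next value of 3.85. Cyp3a25 was 0.0835 in control lung 27 (next -0.03), near the level of the dimmest probes. All 10 were in the lung and none in the liver.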

How the results depend on the processing

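No P450 probe was called in lung, in liver or in their difference under any alternative run. Between the tissues 84 P450 probes were called, 76 to 85 under the other settings and 82 to 86 with each array left out. With the mouse as a replicate block, 81 were called between tissues and 0 in the difference of the exposure effects (54 of all probes), and Cyp2b10 passed the test at -0.40 (adjusted p = 0.00327, limma), as it did without background correction (-0.50), with the authors' table (-0.60) and without control liver 45. Under the processed signals, Cyp4b1 turned to -0.83 and Cyp2b9 to 0.0513. Of 91 probes called in lung over the whole array, 15 remained in number under normexp on all spots, 6 under median centring and 39 without the lungs of exposed mice 1, 13 and 19, an alternative added after seeing the data. For the difference of the effects these numbers were 5, 12 and 37 of 58, and 35 under the processed signals. P450 probes higher in exposed lung numbered 39 under the filter on dim probes, which left fewer probes to test. P450 probes lower in exposed liver numbered 20 of 102 under normexp on all spots and 20 under median centring, against 69. Those lower at an unadjusted p under 0.05 numbered 12 without background correction, 1 under normexp on all spots, 3 under the processed signals, 0 under median centring, 9 with the authors' table, and 10 to 23 with each array left out, against 19. The causes were not tested. The correlation of Cyp26b1 between tissues was 0.803 to 0.919 under 5 other processings, also added after seeing the data. Uncalled differences of named genes changed sign in 36 of 323 comparisons in lung and 54 of 296 in liver over the other settings. Dim probes limit what can be read in the lung, where 22 lead probes were above background in no control.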
